A study of Homo sapiens with 2 samples.

Results

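Transcripts of the MHC class I pathway differed little between the PHF12 knockdown library and the control library of H1299 cells. None of the 9 genes of the pathway described here, HLA-B, HLA-C, HLA-E, HLA-F, B2M, TAP1, TAP2, TAPBP and NLRC5, differed by 1.5-fold or more, where 4.44% of all genes measured did. A count of 0 of 9 lies near that share. PHF12 itself also stayed under 1.5-fold, at 0.753 of the control level. HLA-B, HLA-C and B2M stood at 0.979, 0.997 and 0.981 of the control level, while HLA-E stood lower, at 0.836, and TAP1 slightly higher, at 1.09 times the control level. Among partners of the pathway, the glycan-trimming enzyme gene GANAB was higher in the knockdown library, by 0.93 on the log2 scale. The immunoproteasome genes PSMB9, PSMB10 and PSMB8 had log2 ratios of −0.31, −0.41 and 0.0044.

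The 9 genes were taken by symbol from a table of 38637 genes and chosen for their place in the class I pathway. All 9 passed a minimum of 1 CPM (TMM-scaled counts per 1e+06, averaged over both libraries), as did 14559 genes in all. RNA was poly(A)-selected and sequenced from H1299, a non-small cell lung cancer line that was started from a metastasis in a lymph node. One library came from H1299 cells with PHF12 KD and carries si-phf12 in its title, and the other came from control cells, labelled with the treatment none and titled nc. Both carry the genotype label wild type. The labels do not say whether the control received a control oligonucleotide, so effects of PHF12, of transfection and of the single culture behind each library cannot be told apart.

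The knockdown library held 26084594 counts and the control library 24740581. PHF12, a PHD finger protein that works with Sin3 and histone deacetylases in gene repression, stood at 0.753 of the control level, with 756 counts in the knockdown library and 947 in the control library. Of the carcinoma line markers, VIM, KRT18 and KRT8 were abundant in both libraries, at log2 ratios of knockdown over control of −0.16, −0.33 and −0.40, and EPCAM was below 1 CPM. The leukocyte markers PTPRC, CD3E, CD2, MS4A1 and TYROBP had 0 counts in both libraries, which allows up to 3 counts each, and of 12 leukocyte markers CD68, a lysosomal protein gene, was the only one to pass 1 CPM. Of 7 stromal and endothelial markers, PECAM1, VWF and COL1A1 passed 1 CPM, with 36 to 63 counts each in the knockdown library and 30 to 50 in the control library.

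Class I molecules show peptides from inside the cell to CD8 T cells. A heavy chain encoded by an HLA gene pairs with beta-2-microglobulin, the TAP1 and TAP2 transporter carries peptides made by the proteasome into the endoplasmic reticulum, and tapasin, the product of TAPBP, holds the empty molecule at the transporter until a peptide is loaded. NLRC5 is the transactivator that, with RFX, NF-Y and CREB/ATF proteins, acts on the X and Y boxes of class I promoters, and interferons and NF-kB act through sites beside them.

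The promoters of HLA-B, HLA-C and B2M, the most abundant of the 9 per length, are shown with that of TAP1, which had the highest log2 ratio of the 9, because the known control elements lie in them. RefSeq promoter windows (GRCh38.p14, 250 bases before the annotated start and 50 after) matched 7 of the 9 genes by symbol, all but HLA-E and NLRC5. The annotated start lay 25 bases from the start of the counted gene for B2M and 176 bases for TAPBP, and at it for the others. The windows lie at chr6:31357130-31357429 on the minus strand for HLA-B, chr6:31272043-31272342 on the minus strand for HLA-C, chr15:44711267-44711566 on the plus strand for B2M and chr6:32853655-32853954 on the minus strand for TAP1. They are written 5′ to 3′ along each gene, and capitals mark 4 motifs searched on both strands: TTTCNNTT of interferon response elements, GGGNNTTNC of NF-kB sites, TGACG of the X box and ATTGG of the Y box, the inverted CCAAT. Matches may adjoin or overlap, as those of TTTCNNTT do in B2M and TAP1. The motifs were chosen after these sequences were read.
HLA-B: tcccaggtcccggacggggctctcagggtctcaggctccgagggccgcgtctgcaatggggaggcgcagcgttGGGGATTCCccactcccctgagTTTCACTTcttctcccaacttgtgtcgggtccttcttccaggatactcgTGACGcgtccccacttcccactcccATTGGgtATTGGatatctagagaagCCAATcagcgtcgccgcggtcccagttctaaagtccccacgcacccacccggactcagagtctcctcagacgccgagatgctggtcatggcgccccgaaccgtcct
HLA-C: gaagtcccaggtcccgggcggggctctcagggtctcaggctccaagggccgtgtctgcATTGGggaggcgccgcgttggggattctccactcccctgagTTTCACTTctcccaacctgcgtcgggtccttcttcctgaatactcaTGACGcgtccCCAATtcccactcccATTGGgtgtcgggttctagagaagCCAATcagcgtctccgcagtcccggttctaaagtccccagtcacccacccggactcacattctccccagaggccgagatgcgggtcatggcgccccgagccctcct
B2M: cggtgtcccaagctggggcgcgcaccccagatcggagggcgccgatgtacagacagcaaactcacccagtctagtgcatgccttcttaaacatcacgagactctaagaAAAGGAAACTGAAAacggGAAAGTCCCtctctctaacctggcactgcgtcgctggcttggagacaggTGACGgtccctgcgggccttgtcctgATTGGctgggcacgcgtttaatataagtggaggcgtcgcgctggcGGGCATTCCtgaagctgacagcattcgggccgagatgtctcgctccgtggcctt
TAP1: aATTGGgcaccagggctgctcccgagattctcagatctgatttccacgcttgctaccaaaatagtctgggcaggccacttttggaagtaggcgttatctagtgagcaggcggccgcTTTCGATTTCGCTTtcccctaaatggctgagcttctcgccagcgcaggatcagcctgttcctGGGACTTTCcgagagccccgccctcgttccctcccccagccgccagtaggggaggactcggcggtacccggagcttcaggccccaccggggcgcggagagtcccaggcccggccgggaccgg

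TGACG followed by ATTGG after 18 to 22 bases, the spacing of X and Y boxes in class I promoters, was found in HLA-B and HLA-C, with a gap of 20 bases each, and in B2M, with a gap of 21 bases, and in 0.266% of 34943 promoter windows. TTTCNNTT was found in all 7 matched genes and in 22.9% of the windows, GGGNNTTNC in HLA-B, B2M, TAP1 and TAPBP and in 16.2%, TGACG in 4 of the 7 genes and in 24.5%, and ATTGG in 5 of the 7 and in 34.6%. In HLA-B the GGGNNTTNC match began 177 bases before the start and in TAP1 72 bases before it. The HLA-B and HLA-C windows were identical at 269 of 304 aligned positions, or 88.5%, and HLA-B and HLA-F at 79.6%. These matches describe the letters of the reference sequence and not bound sites.

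Levels per length, in the authors' TPM (counts divided by gene length and scaled to one total in each library), spanned from HLA-B to HLA-F. HLA-B had 411 TPM in the knockdown library and 413 TPM in the control library. B2M had 402 TPM in the knockdown library and 403 TPM in the control library. HLA-C had 296 TPM in the knockdown library and 292 TPM in the control library. Of the genes measured, 97.5% had a lower mean TPM than HLA-B, 97.4% than B2M and 96.4% than HLA-C. HLA-E, which encodes the nonclassical class I molecule that presents leader peptides to NK cell receptors, followed with 171 TPM in the knockdown library and 201 TPM in the control library.

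TAP1 had 73.9 TPM in the knockdown library and 66.8 TPM in the control library. TAPBP, the tapasin gene, had 71.8 TPM in the knockdown library and 70.1 TPM in the control library. TAP2 had 47.3 TPM in the knockdown library and 49.2 TPM in the control library. The transporter and tapasin genes thus lay well under the abundant heavy chain genes and B2M. NLRC5, the transactivator gene, had 3.43 TPM in the knockdown library and 3.26 TPM in the control library. HLA-F, a nonclassical class I gene, was the lowest by TPM, with 2.82 TPM in the knockdown library and 3.15 TPM in the control library. The order was the same in both libraries except for TAP1 and TAPBP, which changed places. HLA-B and B2M were not separated beyond counting error, with a TPM ratio of 1.02 in each library (95% counting interval 0.989 to 1.05 in the knockdown library, 0.991 to 1.06 in the control library). The same held for TAP1 over TAPBP in the knockdown library, at 1.03 (0.970 to 1.09), and for NLRC5 over HLA-F there, at 1.22 (0.996 to 1.49).

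**Figure D1:**
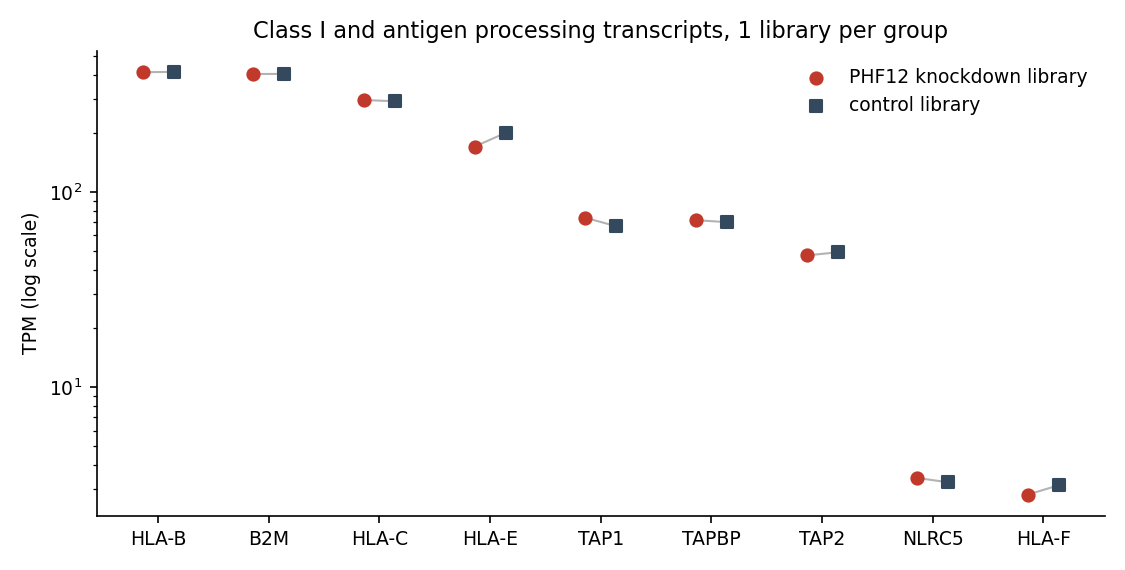
TPM on a log scale of the 9 genes, ordered by the knockdown library, with the PHF12 knockdown library as circles on the left of each pair and the control library as squares on the right, 1 library per group and so without error bars. HLA-B, B2M, HLA-C and HLA-E lie above 170 TPM in both libraries and NLRC5 and HLA-F below 4 TPM.

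Log2 ratios set the knockdown library over the control library, from counts scaled by TMM (trimmed mean of M-values). With 1 library per group there is no replicate check on any of them, so they compare 2 libraries rather than 2 conditions, and their 95% intervals hold counting error alone. Of the 9 genes, 3 had a log2 ratio above 0 and 6 below, with a median of −0.03, beside a median of −0.01 over the 14559 genes measured. The counting interval lay above 0 for TAP1 and below 0 for HLA-E and TAP2, so for 1 and 2 of the 9 genes, where 20.3% of all genes measured lay above and 20.9% below. At least 1.5-fold higher were 0 of the 9, where 2.16% of all genes were, and at least 1.5-fold lower were also 0, where 2.29% were.

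The classical heavy chain genes come first. HLA-B, on the minus strand of chromosome 6 from 31353875 to 31357179 (hg38), had 5852 counts in the knockdown library and 5638 in the control library, a log2 ratio of −0.03 (−0.08 to 0.02). HLA-C, minus strand of chromosome 6 from 31268749 to 31272092, had 4233 counts in the knockdown library and 4003 in the control library, a log2 ratio of −0.0041 (−0.07 to 0.06), which turned positive, up to 0.02, with other scalings, TPM and thinning. A larger absolute log2 ratio than that of HLA-B was found for 87.3% of the genes measured, and than that of HLA-C for 98.2%. As folds, the intervals ran 0.943 to 1.02 for HLA-B and 0.955 to 1.04 for HLA-C.

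HLA-E, plus strand of chromosome 6 from 30489508 to 30494194, had the largest difference of the 9 genes. It had 4672 counts in the knockdown library and 5269 in the control library, a log2 ratio of −0.26 (−0.32 to −0.20). A larger absolute log2 ratio was found for 25.3% of the genes measured, among them the keratin genes KRT8 and KRT18 and the reference gene HPRT1, at −0.38 (−0.48 to −0.29). Of 6 reference genes, 5 lay below 0, with a median of −0.09. ACTB lay above 0, at 0.22 (0.20 to 0.24), and RPLP0 stood at −0.11 (−0.13 to −0.09). Any part of the reference genes in the HLA-E difference was not tested. Within each library, HLA-E over HLA-B stood at a TPM ratio of 0.416 in the knockdown library and 0.487 in the control library, a log2 change of −0.23 (−0.31 to −0.15), and HLA-E over HLA-C at 0.577 in the knockdown library and 0.688 in the control library, a log2 change of −0.25 (−0.34 to −0.17). These ratios do not depend on how the libraries are scaled. HLA-F, on chromosome 6 from 29723434 to 29740355, had 155 counts in the knockdown library and 166 in the control library, a log2 ratio of −0.18 (−0.51 to 0.14), and at this depth a ratio of the size of that of HLA-E could not be told from 0.

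The genes of all protein-coding genes measured whose TPM lay closest to those of HLA-E over the 2 libraries were YIF1B, LTBP4 and TIMP2, at Euclidean distances of 0.0399, 0.0426 and 0.0439 in log2 TPM. YIF1B, a Golgi trafficking gene, had 173 TPM in the knockdown library and 206 TPM in the control library. LTBP4, a TGF-beta binding protein of the matrix, had 168 TPM in the knockdown library and 197 TPM in the control library. With 2 libraries this likeness says no more than that level and ratio were alike.

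The light chain gene B2M, plus strand of chromosome 15 from 44711492 to 44718145, had 10611 counts in the knockdown library and 10198 in the control library. Its log2 ratio was −0.03 (−0.07 to 0.01), a smaller absolute ratio than that of 88.9% of the genes measured. Relative to B2M within each library, HLA-B changed by −0.0035 on the log2 scale (−0.07 to 0.06), HLA-C by 0.02 (−0.05 to 0.10) and HLA-E by −0.23 (−0.30 to −0.16). The 4 heavy chain genes of the set summed to 881 TPM in the knockdown library and 909 TPM in the control library, which was 2.19 times the TPM of B2M in the knockdown library and 2.25 times in the control library. These multiples rest on the listed gene lengths, 2845 bases for B2M.

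The peptide transporter genes differed in direction. TAP1, minus strand of chromosome 6 from 32845209 to 32853704, had 1953 counts in the knockdown library and 1694 in the control library, a log2 ratio of 0.12 (0.03 to 0.22). TAP2, on the same strand beyond PSMB8 at 32821831 to 32838739, had 2690 counts in the knockdown library and 2680 in the control library, a log2 ratio of −0.08 (−0.16 to −0.0016). The counting interval of TAP2 reached across 0 when libraries were scaled by total counts, DESeq2 size factors or upper quartiles. TAP1 over TAP2 stood at a TPM ratio of 1.56 in the knockdown library and 1.36 in the control library, a log2 change of 0.20 (0.08 to 0.32) that does not depend on scaling.

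TAPBP, minus strand of chromosome 6 from 33299694 to 33314254, had 2646 counts in the knockdown library and 2477 in the control library, a log2 ratio of 0.01 (−0.07 to 0.09), nearer to 0 than those of 95.8% of the genes measured. NLRC5, plus strand of chromosome 16 from 56989557 to 57083520, had 281 counts in the knockdown library and 256 in the control library, a log2 ratio of 0.05 (−0.20 to 0.30). A ratio as far above 0 as that of HLA-E lies below it would be inside this interval.

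**Figure D2:**
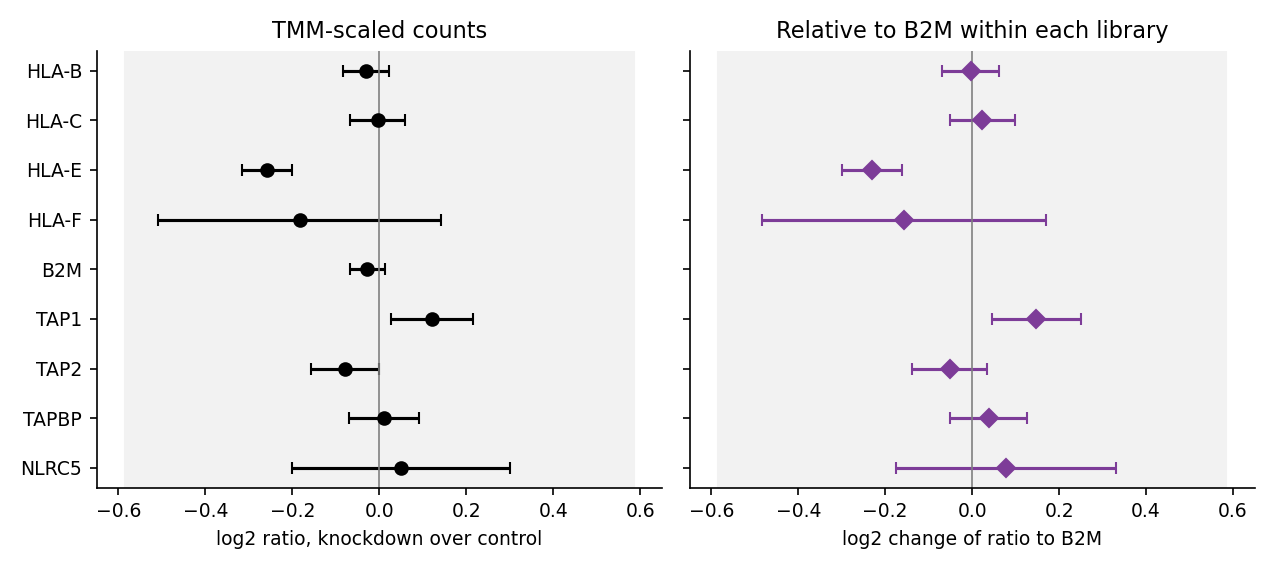
Log2 ratios, knockdown over control library, of the 9 genes from TMM-scaled counts (left) and the log2 change of each gene's ratio to B2M within a library (right), with bars for 95% counting intervals and shading for less than 1.5-fold. All 9 lie within the shading, with HLA-E below 0 and TAP1 above 0 in both panels.

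**Figure D3:**
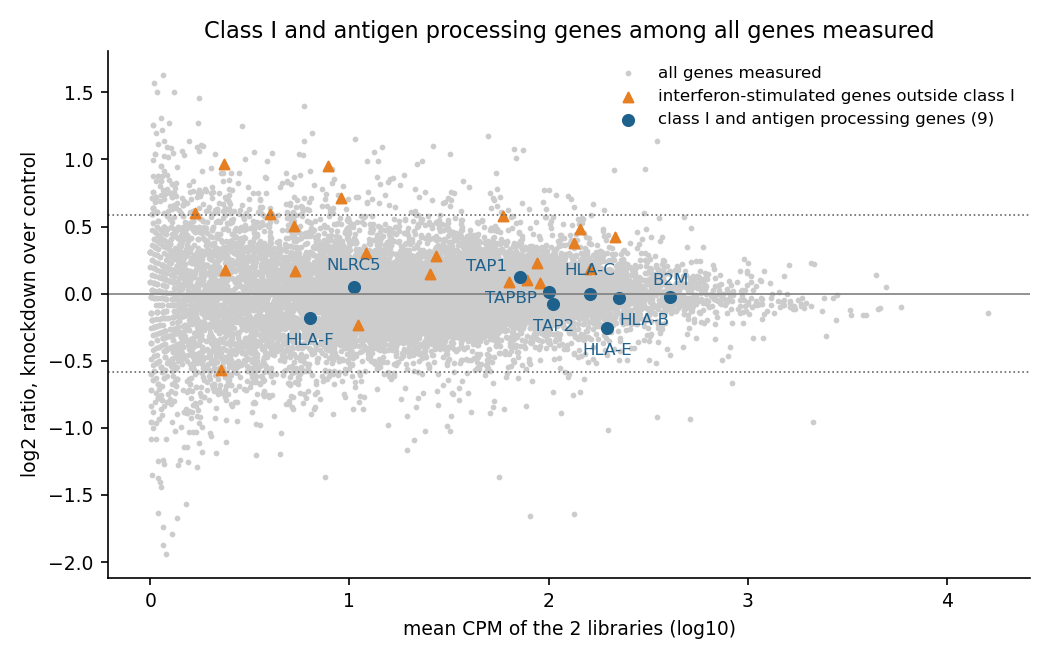
Log2 ratio, knockdown over control library, against the log10 of the mean CPM of both libraries for the 14559 genes measured, with the 9 genes as labelled circles, 22 interferon-stimulated genes as triangles and dotted lines at 1.5-fold. None of the 9 genes reaches a dotted line, and HLA-E at −0.26 lies lowest.

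Reads of these genes can be shared with relatives and with antisense genes. Of all windows of 150 bases, the read length, in the longest coding GENCODE release 29 transcripts of HLA-B, HLA-C and HLA-E, 0 occurred on the same strand in a transcript of another gene, and of windows of 50 bases 2.54%, 6.71% and 5.13% did. HLA alleles vary between people, and how reads of alleles unlike the reference were placed was not tested. On the opposite strand, 22.7% of the HLA-F windows of 150 bases were shared, in part with HLA-F-AS1, 11.1% of those of TAP1, with PSMB8-AS1, and 8.80% of those of HLA-B. HLA-F-AS1 had 46 counts in each library and PSMB8-AS1 had 168 in the knockdown library and 141 in the control library, far fewer than TAP1 in each. Of the TAP2 windows of 150 bases, 34.6% also occurred in the overlapping GENCODE gene AL669918.1, which is on the same strand. Among the genes with counts in these libraries none was listed as overlapping TAP2, and any effect of the shared windows on its counts was not tested.

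Genes beside the 9 on the chromosome come next. PSMB9 starts 488 bases from the start of TAP1 on the opposite strand, in the stretch known as their shared promoter region. PSMB9, an immunoproteasome subunit gene, had 241 counts in the knockdown library and 282 in the control library, a log2 ratio of −0.31 (−0.57 to −0.06). PSMB9 over TAP1 stood at a TPM ratio of 0.346 in the knockdown library and 0.467 in the control library, a log2 change of −0.43 (−0.70 to −0.16). PSMB8, which lies 530 bases beyond the other end of TAP1, had 1086 counts in the knockdown library and 1021 in the control library, a log2 ratio of 0.0044 (−0.12 to 0.13). Beside B2M, PATL2 begins 86 bases away on the opposite strand and had a log2 ratio of −0.01 (−0.56 to 0.54). RGL2 and ZBTB22, on either side of TAPBP, stood at 0.03 (−0.04 to 0.11) and 0.06 (−0.19 to 0.31). Of the farther neighbours, 5 had intervals that left out 0, in both directions, where 20.3% of all genes measured lay above 0 and 20.9% below. Beside HLA-E, TRIM39-RPP21 stood at −0.15 (−0.28 to −0.02) and GNL1 at 0.08 (0.02 to 0.14), and beside HLA-B, MICA-AS1 stood at 0.43 (0.15 to 0.71). GABBR1, a GABA-B receptor subunit gene beside HLA-F, stood at −0.28 (−0.47 to −0.10), and HERPUD1, a gene of endoplasmic reticulum stress beside NLRC5, at −0.28 (−0.39 to −0.17). Intervals that included 0 were those of HCG27 beside HLA-C, at −0.47 (−1.27 to 0.31), and HLA-H beside HLA-F, at −0.03 (−0.32 to 0.26). The same held for LOC100419583 beside B2M, at −0.14 (−0.31 to 0.03), and TSBP1-AS1 beside TAP2, at 0.08 (−0.32 to 0.49). It also held for CPNE2 beside NLRC5, at −0.13 (−0.26 to 0.00068). MICA-AS1 spans 31394289 to 31400470 on the minus strand, and MICA spans 31400711 to 31415315 on the plus strand, without overlap.

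Immunoproteasome subunits replace constitutive ones and favour peptides that bind class I. Of 6 immunoproteasome and proteasome activator genes, 3 had a log2 ratio above 0 and 3 below, with a median of −0.01. The counting interval lay below 0 for PSMB10, at −0.41 (−0.61 to −0.21) with 382 counts in the knockdown library and 478 in the control library, and for PSMB9, and above 0 for none. PSME3, the activator subunit of nuclear proteasomes, stood at 0.07 (−0.0046 to 0.14). The constitutive counterparts PSMB5, PSMB6 and PSMB7 stood at −0.04, 0.03 and 0.10. PSMB10 over PSMB7 was at a TPM ratio of 0.0476 in the knockdown library and 0.0677 in the control library, a log2 change of −0.51 (−0.71 to −0.31), and PSMB9 over PSMB6 at 0.0843 in the knockdown library and 0.106 in the control library, a log2 change of −0.34 (−0.61 to −0.07). PSMB8 over PSMB5 changed by 0.04 (−0.10 to 0.19).

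Partners that fold, load or trim lay higher. Of 11 genes, 9 had a log2 ratio above 0, with a median of 0.11, and the counting interval lay above 0 for 6 and below 0 for 1, where 20.3% and 20.9% of all genes did. GANAB, the catalytic subunit of glucosidase II, which trims glucose from the glycans of new glycoproteins, was the only gene of this list past 1.5-fold. It had 10429 counts in the knockdown library and 5168 in the control library, a log2 ratio of 0.93 (0.88 to 0.98), past all but 0.852% of the genes measured in absolute size. UGGT1, which puts glucose back on misfolded glycoproteins, stood at 0.34 (0.27 to 0.40), and TAPBPL, a peptide editor related to tapasin, at 0.30 (−0.10 to 0.70) on 124 counts in the knockdown library and 95 in the control library. Named for their roles after their values were seen, the lectin chaperone genes CALR and CANX stood at 0.25 (0.21 to 0.29) and 0.09 (0.06 to 0.12). PDIA3, the disulfide isomerase of the loading complex, stood at 0.11 (0.06 to 0.15). HM13, the signal peptide peptidase that releases the leader peptides HLA-E presents, stood at −0.17 (−0.22 to −0.12).

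The factors that act on class I promoters lay close to the control level. Of 12 genes, 10 had a log2 ratio below 0, with a median of −0.08, and none reached 1.5-fold. ATF1, of the CREB family, stood at 0.25 (0.12 to 0.38), IRF1, an interferon regulatory factor, at −0.14 (−0.29 to 0.01), and the RFX subunit gene RFXAP at −0.13 (−0.48 to 0.21). The counting interval lay above 0 for 1 and below 0 for 2 of the 12, where 20.3% of all genes measured lay above and 20.9% below.

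Interferon receptor and JAK-STAT genes lay on both sides of 0, with 5 of 13 above, a median of −0.03 and none past 1.5-fold. The type I receptor genes IFNAR1 and IFNAR2 stood at 0.27 (0.18 to 0.37) and −0.34 (−0.50 to −0.17). Interferon-stimulated genes outside the class I pathway lay higher, with 20 of 22 measured above 0, a median of 0.29 and 5 past 1.5-fold upwards, where 2.16% of all genes were. Their leading genes were IFI27 at 0.97 (0.40 to 1.56), the antiviral GTPase gene MX1 at 0.95 (0.64 to 1.26) and OAS2 at 0.72 (0.44 to 1.0). Class I genes are also known interferon targets, and the 9 genes had 3 of 9 above 0 and a median of −0.03 in the same libraries. The difference between these sets was not tested, since there is 1 library per group.

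Genes known to restrain class I, through surface turnover or silencing of its promoters, had 8 of 11 log2 ratios above 0 and a median of 0.13, with none past 1.5-fold. TRAF3, a signalling adaptor that holds back NF-kB, stood at 0.36 (0.30 to 0.42), EZH2, the Polycomb methyltransferase, at −0.32 (−0.44 to −0.21) and the membrane ubiquitin ligase gene MARCHF9 at −0.29 (−0.47 to −0.11). Of 7 class I-like genes, 4 passed 1 CPM: HFE, a regulator of iron uptake, at 0.46 (0.23 to 0.69), FCGRT, the heavy chain of the neonatal Fc receptor, at −0.22 (−0.37 to −0.07), MR1, which presents vitamin B metabolites, at −0.24 (−0.61 to 0.12), and PROCR at −0.09 (−0.19 to 0.01). HLA-G had 11 counts in the knockdown library and 4 in the control library, below the minimum.

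**Figure D4:**
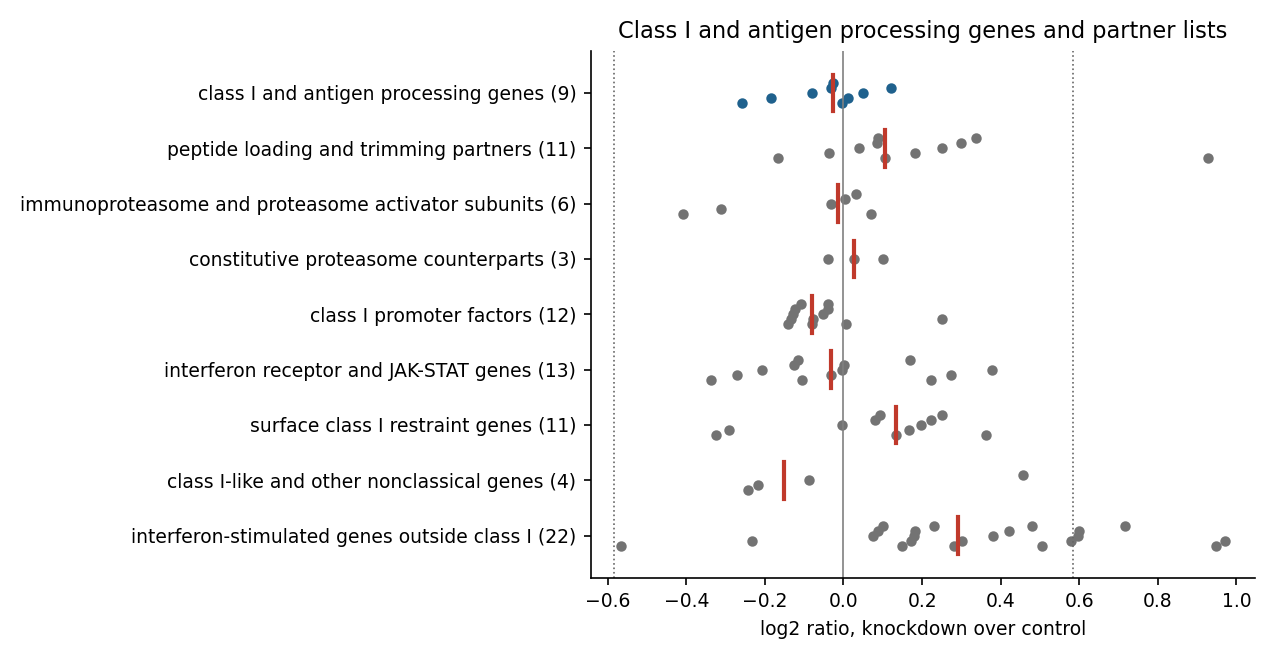
Log2 ratio, knockdown over control library, of each gene measured (points) in the 9 class I and antigen processing genes and in 8 partner lists, with the number of genes in brackets, the median of each list as a red bar and dotted lines at 1.5-fold. The median is highest, at 0.29, for interferon-stimulated genes, and GANAB stands apart from the other loading partners at 0.93.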

How the data were processed

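Poly(A)-selected RNA of 2 H1299 libraries, 1 per group by the treatment label, was sequenced as paired-end reads of 150 bases, per the labels' protocols. HISAT2, hg38 and HTSeq are named in the submitters' processing notes; for their versions and the strand setting, no source used here gives a value. The authors deposited counts, unscaled, and TPM values for each gene, per the file headers, and dividing counts by the listed gene length returned the TPM to within 1e-06. Columns were matched to samples by title.

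TMM factors came from edgeR 4.0.16 (R 4.3.3), and a mean of 1 CPM or more was required. Log2 ratios carry no pseudocount. Intervals are exact conditional Clopper-Pearson 95% intervals of a ratio of 2 Poisson counts, or of an odds ratio for ratios within libraries, and reads without molecular identifiers are not independent molecules. No p-value can be had from 1 library per group, and the call is 1.5-fold. Alternatives were other scalings (DESeq2 1.42.0 among them), TPM, pseudocounts, filters, folds and thinning. Named are the 9 genes, PHF12, the neighbours, the genes nearest HLA-E in TPM and the 3 largest absolute log2 ratios per list; others are marked, and 1 gene under this rule is not reported here. The genes and the 13 lists were chosen with earlier results of these data known. Python 3.11.15 with scipy 1.17.1, pandas 2.3.3, numpy 2.4.6 and matplotlib 3.10.9 did the rest.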

Additional observations from a re-analysis of the deposited data

How the results depend on the processing

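Each of the 9 genes kept its log2 ratio within its counting interval under all 7 alternatives run for it, and counts past the fold were 0 under every scaling, pseudocount, filter and fold tried. HLA-E ranged from −0.26 to −0.23 and TAP1 from 0.12 to 0.15, while HLA-C ranged from −0.0041 to 0.02 and so changed sign. Genes with a counting interval below 0 numbered 1 instead of 2, HLA-E without TAP2, with total count scaling, DESeq2 size factors and upper quartile scaling. The median of reference genes was −0.0940, against −0.0754 with DESeq2 size factors and −0.0690 with TPM; that of carcinoma line markers was −0.33, against −0.30 with TPM and −0.24 without the filter; and that of class II genes was 0.16 over 3 genes, against −0.30 without the filter, which adds genes of few counts. The share of all genes past 1.5-fold, 4.44%, was 2.73% and 1.88% with pseudocounts of 0.5 and 1 CPM, 3.64% among protein-coding genes and 18.2% without the filter, and 0.646% passed 2-fold. Of the other named genes, 260 of 266 values stayed within the counting interval and 0 reversed. Counting depth limits what HLA-F and NLRC5, with 155 to 281 counts, can show. No paired analysis was possible because each group has 1 library.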

Other observations

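Class II genes, which serve presentation to CD4 T cells, were nearly silent. Of 13 listed, 5 had 0 counts in both libraries and 3 passed 1 CPM. HLA-DMA, a peptide-exchange chaperone of class II, had 38 counts in the knockdown library and 68 in the control library, a log2 ratio of −0.92 (95% counting interval −1.54 to −0.33). Its partner HLA-DMB had 38 counts in the knockdown library and 30 in the control library, a log2 ratio of 0.26 (−0.47 to 1.0). CIITA, the class II transactivator and a relative of NLRC5, stood at 0.16 (−0.17 to 0.50) with 164 counts in the knockdown library and 138 in the control library.

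Between HLA-F and TAPBP on chromosome 6, a stretch of 3.59 megabases, 109 other genes were measured. Of these, 63 had a log2 ratio above 0 and 46 below, with a median of 0.05, where the median of all genes measured was −0.01. At least 1.5-fold higher were HSPA1L, a testis-enriched HSP70 gene, at 0.85 (0.31 to 1.41) and VWA7 at 0.70 (0.34 to 1.06). At least 1.5-fold lower were HLA-DMA, the class I pseudogene HLA-L at −0.75 (−1.32 to −0.20) and AGER at −0.60 (−1.14 to −0.08). These 2 higher and 3 lower genes of 109 stand beside shares of 2.16% and 2.29% over all genes measured. All of these rest on 38 to 177 counts in the knockdown library and 44 to 103 in the control library. HSPA1L, VWA7, HLA-L and AGER were chosen by these values.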
